A study of Mus musculus with 8 samples.

Results

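The 10 genes described here are core components of the mammalian circadian clock: the activators Clock and Arntl (also called Bmal1), the repressors Per1, Per2, Cry1 and Cry2, the nuclear receptors Nr1d1 and Nr1d2 (REV-ERBα and REV-ERBβ), the clock output factor Dbp, and Bhlhe40 (Dec1). They are the rows of the count table with these 10 gene symbols, 10 of 23143 genes, and all 10 were found. The cells were RAW264.7, a mouse line with macrophage properties derived from a tumour induced by a leukaemia virus, and their RNA was sequenced at 8 times after removal of ribosomal RNA. One library came from untreated cells (0 min), and the other 7 came from cells given 100 ng/ml lipopolysaccharide (LPS) of E. coli O111:B4, the cell wall component that activates the receptor TLR4, for 15, 30, 45, 60, 75, 90 or 120 min. The labels name no genetic change, all libraries are of the same cell line, and no source used here says that the cells' clocks had been synchronised. The labels give the RNA fraction as cytoplasmic, while the molecule is given as total RNA.

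In the clock, the CLOCK:BMAL1 dimer binds E-boxes and drives transcription of the Per, Cry, Nr1d and Dbp genes. PER and CRY proteins return to the nucleus and inhibit CLOCK:BMAL1. REV-ERBα and REV-ERBβ compete with ROR receptors at shared DNA elements and repress Arntl, which forms a second loop, while DBP activates and NFIL3 represses genes through D-boxes. Bhlhe40 encodes a repressor that also binds E-boxes. In other cell types Per1 is known to be induced within an hour by signals that act through CREB or the glucocorticoid receptor, and in macrophages the clock is known for its influence on the size of the inflammatory response.

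Every value below comes from 1 library per time point, so no difference has a replicate check and no p-value is given. Total read counts ranged from 100250892 at 75 min to 159077286 at 120 min. The 95% intervals cover counting error only, and since reads carried no molecular identifiers they are not independent molecules. All 6 macrophage markers had 5528 to 575999 reads in every library, whereas 11 markers of T, B, epithelial, fibroblast and endothelial cells had 0 to 16, with Epcam, Krt5 and Col1a1 at 0 throughout. The LPS response genes stood apart from the untreated library, with Tnf at 8921.9 normalised counts at 0 min and 29548.4 to 359741.7 after LPS, and Il1b at 38.5 and 55.2 to 108097.5. In bulk RNA, fewer cells that express a gene and less RNA per cell cannot be told apart.

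One feature divides the libraries and crosses the time course. The ribosomal precursor Rn45s took 8.18% to 9.11% of the reads at 0, 30, 60 and 120 min, but 12.96% to 20.53% at 15, 45, 75 and 90 min. For Arntl, Per1, Cry2, Nr1d1 and Dbp, ratios within one of these sets of 4 libraries are therefore also given. Every ratio to 0 min at 15, 45, 75 or 90 min compares libraries of different sets. The nuclear RNA Malat1 had 247975.6 normalised counts at 0 min and 354346.5 to 490018.6 in the LPS libraries, and Neat1 had 5670.2 and 5533.0 to 9096.6. The part of these differences in the results was not tested.

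RefSeq promoter windows of build GRCm38.p6, from 250 bases before to 50 after a start site, were given for 8 of the 10 genes (all but Per2 and Bhlhe40), as 12 windows, with 3 start sites for Clock and 2 each for Per1 and Arntl. The start sites given for these 3 genes lie inside the annotated gene. They are 3841 and 5044 bases from its outermost start for Per1, 28994 and 29040 for Arntl, and 811 to 2101 for Clock. Those of Dbp and Cry2 lie 147 and 16 bases inside. Which start sites these cells use was not examined. The windows are shown for the elements through which the loop is wired. The genes that bind and the genes that are bound are measured side by side below. Capitals mark the motif, and each sequence reads 5′ to 3′ on the gene's strand. The E-box CACGTG lay in the windows of Per1 (position -166 from the first of its 2 start sites, chr11:69098763-69098808, plus strand) and Cry1 (position -60, chr10:85185089-85185134, minus strand). The variant E′-box CACGTT was found in Cry1, Cry2 and Nr1d1, in Nr1d1 as its reverse complement at position -28 (chr11:98775380-98775425, minus strand). The ROR and REV-ERB core AGGTCA was found in Nr1d2 at position -77 (chr14:18239158-18239203, minus strand), and in Arntl at position 32 from the second of its start sites (chr7:113207532-113207557, plus strand), as well as in Clock and Per1.
Per1, E-box: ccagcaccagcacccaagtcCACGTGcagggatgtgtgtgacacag
Cry1, E-box: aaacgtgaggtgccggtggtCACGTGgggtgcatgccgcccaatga
Nr1d1, E′-box: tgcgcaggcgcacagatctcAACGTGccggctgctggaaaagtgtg
Nr1d2, ROR core: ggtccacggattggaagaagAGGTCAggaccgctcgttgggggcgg
Arntl, ROR core: ggcagaaagtAGGTCAgggacggagg

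Both strands were searched in all 32851 windows of the 27025 genes in the table, and a gene was counted when any of its windows held the motif. The E-box lay in 8.09% of these genes, the E′-box in 5.44% and the ROR core in 18.1%. Of the 8 clock genes, 2, 3 and 4 had them. The window of Dbp held none of these motifs, and that of Nr1d2 held neither the E-box nor the E′-box. The cAMP response element TGACGTCA was in 2.03% of all genes and in none of the 8 genes, and its shorter core TGACG, which the full element contains, was in 23.0% and in Per1, Cry1 and Cry2. The kappa-B motif was in 22.9% and in Clock, Cry2 and Nr1d2. The D-boxes TTATGTAA (1.11%) and TTACGTAA (0.126%) and the CArG box of serum response factor (1.81%) were in none of the 8. A match is a run of letters in this window and not a shown binding site.

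The 10 mRNAs did not move as a block, as the plot of normalised counts by time shows. Per1 and Per2 were highest at 45 min and then lower again. Nr1d1 was 3.53-fold and Arntl 2.16-fold above the untreated library at 120 min, Dbp was lowest at that time at 0.457 of the untreated level, and Clock, Cry1 and Cry2 moved less, with ratios to 0 min between 0.694 (Cry2 at 120 min) and 1.40 (Clock at 120 min). All 10 passed the filter of a mean normalised count of 10. Where 8 values are listed, they are in order of time, every 15 min from 0 to 90 min and then at 120 min.

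**Figure D1:**
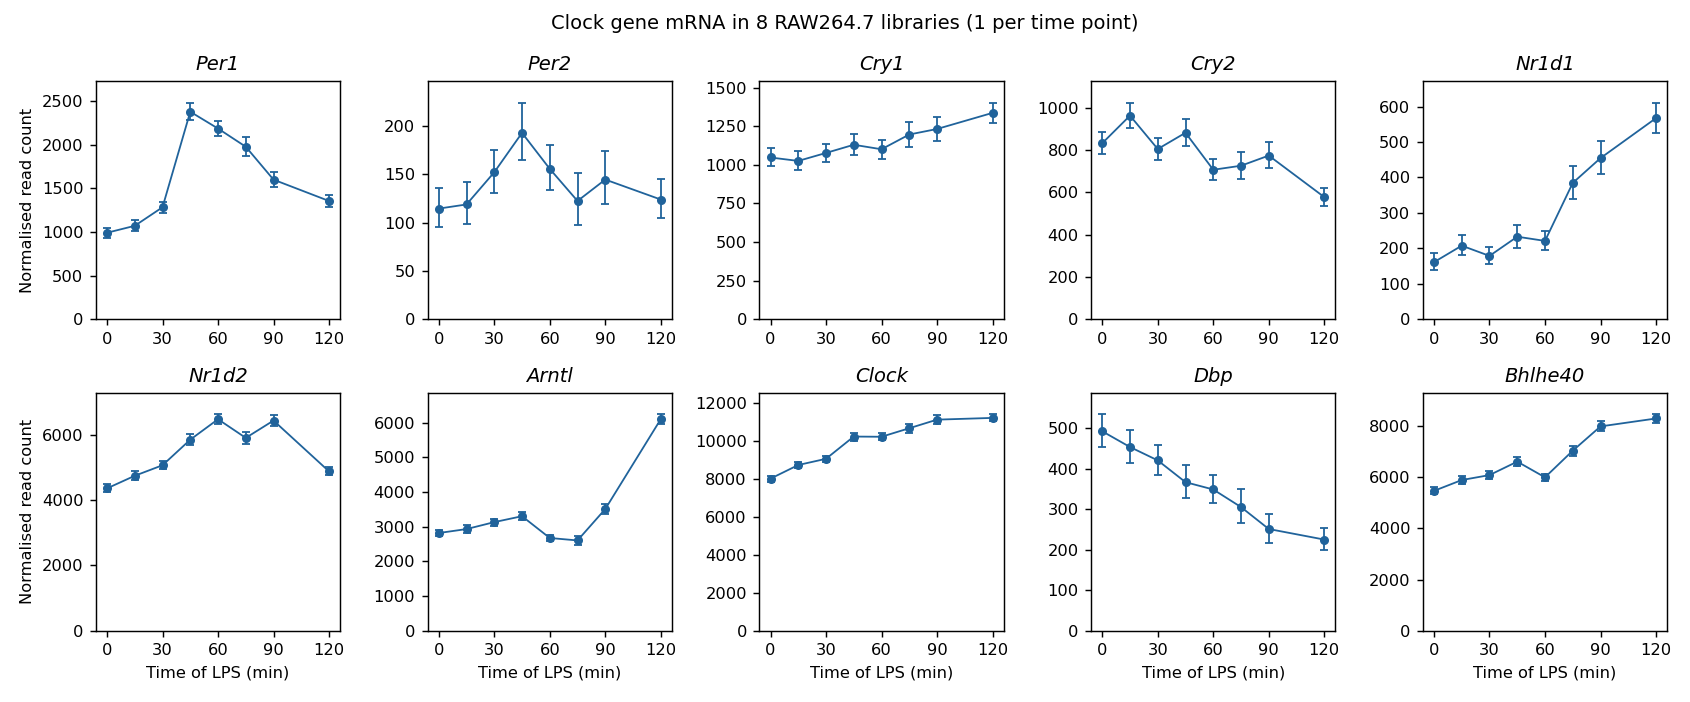
Normalised read count (y axis, from 0) against minutes of LPS (x axis) for the 10 clock genes, with 1 point per library and bars for the exact 95% Poisson interval of its count. Per1 peaks at 45 min (2378.6), Arntl leaves its earlier range at 120 min (6101.9), Nr1d1 is higher from 75 min on and Dbp is lower at each later time than at the one before.

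Among the activators, Arntl stood out at the last time point. Its product is the partner with which CLOCK binds E-boxes as a dimer. Arntl had normalised counts of 2818.8, 2932.8, 3133.0, 3303.6, 2675.6, 2605.1, 3510.4 and 6101.9. The first 7 libraries lay between 2605.1 and 3510.4 and the 120 min library stood well above it. Against 0 min, Arntl at 120 min was 2.16-fold higher (95% counting interval 2.08 to 2.26), a log2 ratio of 1.11. It was 1.74-fold (1.66 to 1.82) above the 90 min library and 2.28-fold (2.19 to 2.38) above the 60 min library, which has a like share of Rn45s. Within the other set, Arntl at 90 min was 1.20-fold (1.14 to 1.26) above 15 min. The difference at 120 min thus rests on 1 library, the last of the series.

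Clock, which encodes the DNA-binding partner of BMAL1, had 8006.5, 8724.1, 9050.9, 10221.5, 10211.0, 10659.9, 11111.5 and 11203.7 normalised counts. The untreated library was the lowest and all LPS libraries were above it. The ratio at 120 min was 1.40 (1.36 to 1.44), a log2 ratio of 0.48, which is short of the fold limit of 0.5 that the study used on the log2 scale. Clock has the longest transcript of the 10 (7478 bases), and log2 ratios moved with transcript length in these libraries. At 45 min the median log2 ratio was -0.23 in the shortest of 20 length bins and 0.38 in the longest, and at 120 min it was -0.07 and 0.30. With that trend subtracted, the log2 ratio of Clock at 120 min was 0.24.

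The Per genes encode subunits of the repressor complex. Per1 had normalised counts of 990.7, 1070.5, 1283.2, 2378.6, 2185.9, 1977.1, 1599.7 and 1355.1. Between 30 and 45 min it was 1.85-fold higher (1.74 to 1.98), and from 45 min on each library was below the one before. The ratio to 0 min was 2.40 (2.23 to 2.58) at 45 min, 2.21 (2.06 to 2.37) at 60 min and 1.37 (1.27 to 1.48) at 120 min. Both sets of libraries show it: Per1 at 45 min was 2.22-fold (2.07 to 2.39) the 15 min value, and at 120 min it was 0.620 (0.582 to 0.660) of the 60 min value. At 45 min only 2.29% of all genes tested had a larger log2 ratio than Per1.

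Per2 had far fewer reads, 87 to 186 a library. Its normalised counts in order of time were 114.6, 118.9, 152.3, 193.1, 155.8, 122.5, 144.7 and 124.0. The highest library was again the one at 45 min, 1.68-fold (1.34 to 2.13) above 0 min. Its counting intervals against 0 min included 1 at 15, 75, 90 and 120 min, so that no difference was detectable at this depth for those times.

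Cry1 and Cry2, which encode the cryptochromes that bind and silence CLOCK:BMAL1, moved little, and at 120 min they lay on opposite sides of the untreated value. At that time, under the scalings compared below, log2 ratios were 0.15 to 0.37 for Cry1 and -0.73 to -0.53 for Cry2. From 45 to 90 min Cry1 had no stable direction, since scaling by total counts put it below 0 min. Cry1 had 1048.0, 1025.8, 1077.6, 1130.6, 1101.4, 1197.0, 1232.8 and 1337.2 normalised counts. Its ratio at 120 min was 1.28 (1.18 to 1.38), inside the fold limit. Cry2 had 831.5, 962.0, 804.1, 881.0, 706.1, 725.2, 773.2 and 577.0. The 120 min library was the lowest for Cry2, at 0.694 (0.629 to 0.765) of 0 min and 0.817 (0.738 to 0.905) of 60 min, a log2 ratio to 0 min of -0.53 and so just past the limit.

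The REV-ERB genes followed separate courses. Nr1d1 had normalised counts of 160.8, 207.4, 178.5, 232.7, 220.8, 384.4, 454.5 and 567.3, from 188 to 700 reads. The libraries of the first hour lay below all 3 of the second hour. Against 0 min, Nr1d1 was 2.39-fold (1.98 to 2.89) higher at 75 min, 2.83-fold (2.36 to 3.39) at 90 min and 3.53-fold (3.0 to 4.17) at 120 min. It was 2.19-fold (1.85 to 2.60) higher at 90 min than at 15 min and 2.57-fold (2.22 to 2.98) higher at 120 min than at 60 min, so both sets of libraries gave the same direction. At 120 min 2.75% of all genes tested had a larger log2 ratio.

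Nr1d2 had 4357.0, 4742.7, 5064.7, 5847.2, 6472.3, 5901.7, 6431.8 and 4876.5 normalised counts. It was highest at 60 and 90 min and nearer to the untreated value at 120 min. The ratio to 0 min was 1.49 (1.43 to 1.54) at 60 min and 1.12 (1.08 to 1.16) at 120 min. Scaled by total counts its log2 ratio was 0.48 at 60 min and -0.04 at 120 min, so that the first was short of the limit and the second had the other sign.

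Dbp, a direct target of CLOCK:BMAL1 and an activator at D-boxes, was the only member of the 10 whose normalised count fell at every step. It had 492.8, 453.9, 420.9, 367.1, 349.0, 305.6, 251.4 and 225.3 normalised counts, from 198 to 576 reads. The steps were small, and the counting intervals of neighbouring times overlapped. Scaled by total counts, the 60 min library was not below the 45 min one, with log2 ratios to 0 min of -0.59 and -0.61. The ratio to 0 min was 0.708 (0.621 to 0.807) at 60 min, 0.510 (0.432 to 0.601) at 90 min and 0.457 (0.395 to 0.529) at 120 min. Dbp at 90 min was 0.554 (0.467 to 0.655) of 15 min, and at 120 min it was 0.646 (0.552 to 0.755) of 60 min, both within a set of like Rn45s share.

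Bhlhe40 had 5463.2, 5885.5, 6079.2, 6605.0, 5991.4, 7031.0, 7979.4 and 8289.3 normalised counts. The untreated library was the lowest and the 90 and 120 min libraries were the highest. The ratio to 0 min was 1.46 (1.41 to 1.51) at 90 min and 1.52 (1.47 to 1.57) at 120 min. With total counts as the scale, the log2 ratios of 0.55 and 0.60 became 0.29 and 0.40, which are inside the limit.

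Several of these genes share genomic sequence with a neighbour on the opposite strand. Exons of Thra cover 263 of the 3077 exon bases of Nr1d1 (chromosome 11, 98767932 to 98775377, minus strand), and exons of Sphk2 cover 539 of the 2993 of Dbp (chromosome 7, 45705100 to 45710203, plus strand). Thra had a log2 ratio of -0.19 at 120 min, where that of Nr1d1 was 1.82. Sphk2 was at 0.645 (0.611 to 0.681) of its untreated value at 90 min and 0.800 (0.765 to 0.836) at 120 min. The libraries were directional and reads that matched more than 1 gene symbol had been discarded, but whether the counting used strand is not given in the sources used here. The part of shared reads in the Dbp values was not tested.

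Counted over the 10 genes, from 0 members (15 and 30 min) to 5 members (90 and 120 min) were beyond the fold limit. The share called higher was above that of all genes at each time from 45 to 120 min, as the plot of shares shows. The share called lower was above it at 120 min only. With 10 genes, each share rests on few calls. A gene was called when its log2 ratio to 0 min was beyond 0.5, among the 12166 genes with a mean normalised count of at least 10. At 15 min no member was called, against 2.80% of all genes called higher and 2.15% called lower. At 30 min again none was called, against 4.20% higher and 2.50% lower. At 45 min Per1, Per2 and Nr1d1 were called higher and none lower, against 10.5% and 5.84% of all genes. At 60 min Per1 and Nr1d2 were called higher and none lower, against 9.08% and 7.46%. Dbp at 60 min, with a log2 ratio of -0.50, lay at the limit and was not called. Scaled by total counts, 2 members were called higher and 1 lower at 45 min, and 1 higher and 1 lower at 60 min. The share of all genes called under that scaling is not given.

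In the second hour, Per1 and Nr1d1 were called higher and Dbp lower at 75 min, against 12.7% of all genes higher and 11.3% lower. At 90 min Per1, Nr1d1, Nr1d2 and Bhlhe40 were higher and Dbp lower, against 14.1% and 12.4%. At 120 min Nr1d1, Arntl and Bhlhe40 were higher, and Cry2 and Dbp lower, against 16.9% and 15.9%. The lower calls among members were 0, 0, 0, 0, 1, 1 and 2 of 10 at the 7 times. At 15, 45 and 120 min the median log2 ratio of the 10 genes was 0.11, 0.31 and 0.40, while that of all genes tested was 0.02, -0.00 and -0.01. All 7 comparisons share the 0 min library, so they are not independent of each other.

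**Figure D2:**
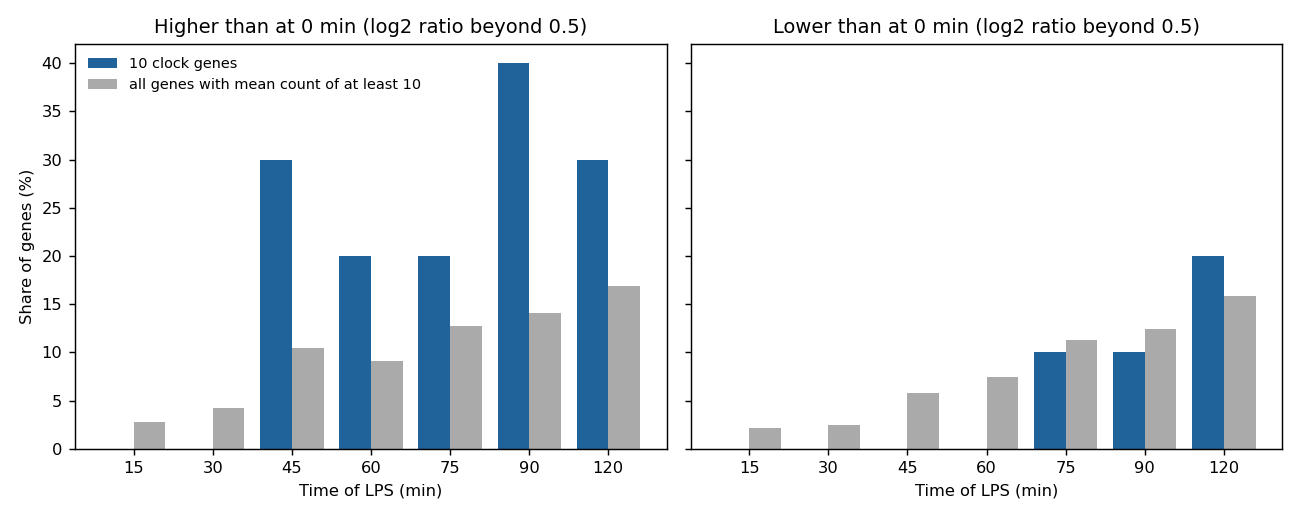
Share of the 10 clock genes (blue) and of all genes with a mean normalised count of at least 10 (grey) whose log2 ratio to 0 min was beyond 0.5, in percent, at each time of LPS. The left panel shows genes above 0 min, with 4 of 10 clock genes at 90 min against 14.1% of all genes, and the right panel genes below it, with 2 of 10 at 120 min against 15.9%.

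The study's own kind of test treats the 8 time points as replicates of each other to estimate the spread, so it compares libraries and not conditions. Run in that way together with the fold limit, it called fewer members. None was called at 15 or 30 min, where 0.518% and 1.62% of all genes were called in either direction. Per1 was called at 45 and 60 min, against 6.50% and 7.22%. Per1 and Nr1d1 were called at 75 min (10.1% of all genes), Nr1d1 and Dbp at 90 min (12.6%), and Nr1d1, Arntl and Dbp at 120 min (18.0%). Per2, Cry1, Cry2, Nr1d2, Clock and Bhlhe40 were not called by it at any time.

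How libraries are scaled bears on the smaller differences, as the plot of 5 scalings shows. Scaling by total counts shifts all log2 ratios to 0 min by -0.33, -0.26 and -0.20 at 75, 90 and 120 min relative to median-of-ratios scaling. The calls of Per1 at 45, 60 and 75 min, Per2 at 45 min, Nr1d1 at 75, 90 and 120 min, Arntl and Cry2 at 120 min, and Dbp at 75, 90 and 120 min held under all 5 scalings. The others did not: Per1 at 90 min had a log2 ratio of 0.43 by total counts, and Nr1d1 at 45 min one of 0.35. Nr1d2 at 60 and 90 min and Bhlhe40 at 90 and 120 min were likewise inside the limit under total-count scaling. Other scalings also added lower calls. By total counts Dbp was past the limit at 45 min (log2 ratio -0.61) and 60 min (-0.59), and Cry2 at 75 min (-0.53), and at 60 min Dbp was also past it by TMM (-0.51) and by total counts without Rn45s (-0.60). Total-count scaling gave as many lower as higher calls in the last 3 libraries, with 2 of each at 75 min, 1 of each at 90 min and 2 of each at 120 min. That scaling lowers the log2 ratio of every gene alike in those libraries. The share of all genes called under it is not given, so these counts have no background beside them. Several small ratios changed sign between scalings, among them Cry1 at 60 min and Per2 at 120 min, with log2 ratios from -0.03 to 0.07 and from -0.09 to 0.11.

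**Figure D3:**
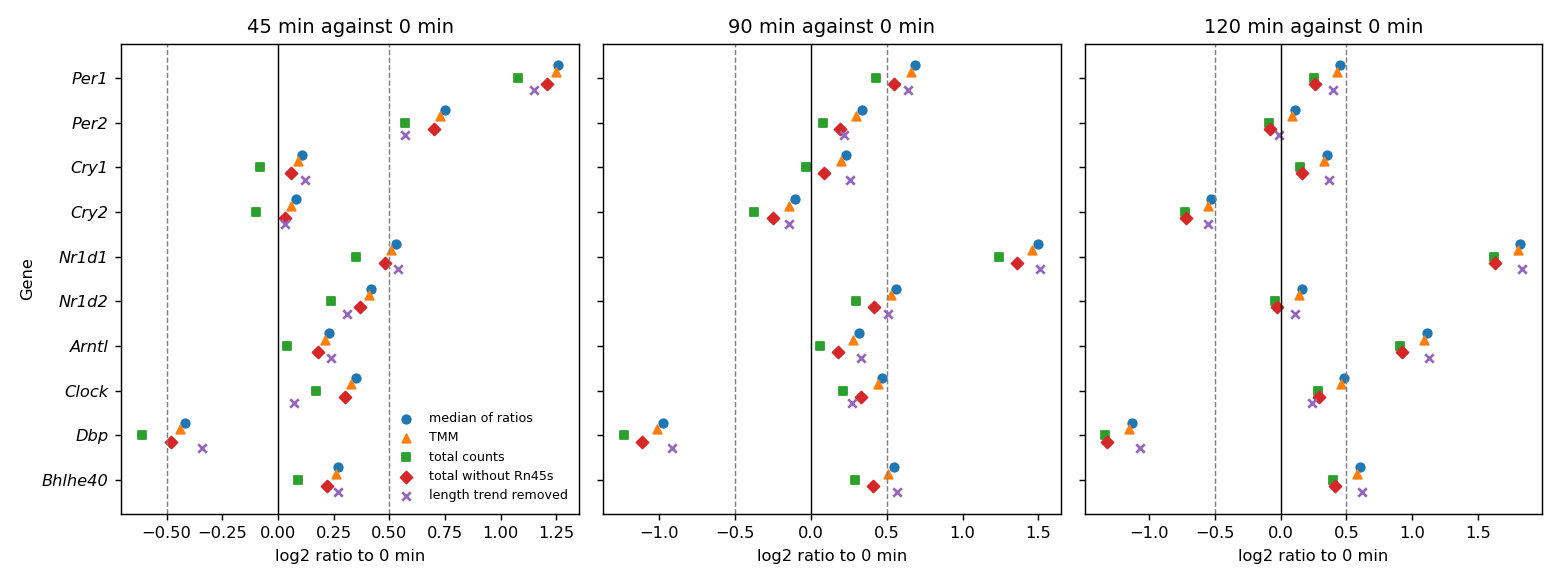
The log2 ratio to 0 min (x axis) of each clock gene at 45, 90 and 120 min under 5 ways to scale the libraries (symbols), with dashed lines at the fold limit of 0.5 in each direction. Nr1d1 and Dbp lie beyond the lines at 90 and 120 min under every scaling, whereas Bhlhe40 at 120 min spans 0.40 to 0.62.

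To compare genes with each other, reads were expressed as rpkm, that is relative to the number of 58-base sequences unique to the gene and to the library's total. At 0 min Bhlhe40 was the most abundant of the 10 at 15.9 rpkm (15.6 to 16.3), followed by Clock at 9.62 (9.43 to 9.82), Arntl at 8.48 (8.20 to 8.78) and Nr1d2 at 8.44 (8.21 to 8.67). Dbp was at 3.39 rpkm (3.12 to 3.68), Cry1 at 3.15 (2.97 to 3.33), Cry2 at 1.94 (1.82 to 2.06), Per1 at 1.90 (1.79 to 2.01), Nr1d1 at 0.539 (0.464 to 0.621) and Per2 at 0.177 (0.148 to 0.210). Neighbours in this order did not differ beyond counting error for Arntl and Nr1d2, for Dbp and Cry1, and for Cry2 and Per1. The place of Dbp depends on the length used, since 484 of its 58-base sequences also occur in a neighbour on the other strand, and with the sense strand alone its level was 2.47 rpkm, below that of Cry1.

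By 120 min the order of levels had altered, with Arntl at 16.0 rpkm second to Bhlhe40 at 21.0 and ahead of Clock at 11.7. Nr1d1, at 1.65 rpkm, was then above Dbp at 1.35 and Cry2 at 1.17. Per2 remained the least abundant at 0.167 rpkm. Since rpkm divides by all reads, levels at 15, 45, 75 and 90 min also carry the larger share of Rn45s, whereas ratios between genes of the same library do not.

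The pairs were therefore compared by their ratio within a library, as drawn in the plot of partner levels. Clock mRNA exceeded Arntl mRNA 1.13-fold (1.09 to 1.18) at 0 min and 1.63-fold (1.55 to 1.72) at 75 min, and at 120 min the ratio was 0.733 (0.713 to 0.754), so that Arntl was the more abundant. The ratio of Per1 to Per2 was 10.7 (8.97 to 12.9) at 0 min, 20.1 (16.1 to 25.2) at 75 min and 13.6 (11.5 to 16.1) at 120 min. Cry1 over Cry2 was 1.62 (1.49 to 1.77) at 0 min and 2.99 (2.73 to 3.27) at 120 min. Nr1d2 exceeded Nr1d1 15.7-fold (13.5 to 18.2) at 0 min, 17.0-fold (14.9 to 19.3) at 60 min and 4.97-fold (4.60 to 5.38) at 120 min.

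**Figure D4:**
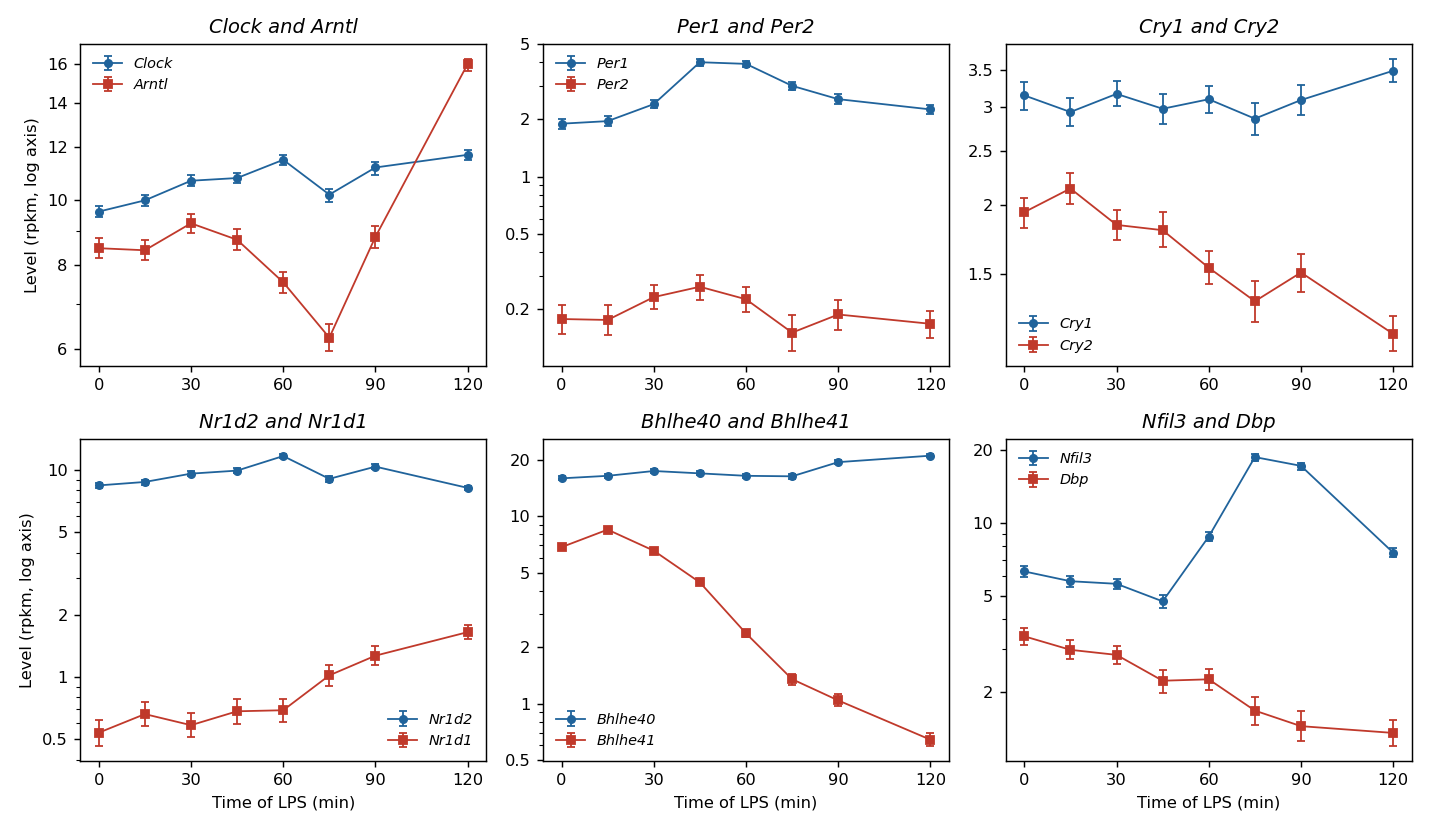
Level in rpkm (log axis) against minutes of LPS for 6 pairs of related clock genes, with 1 point per library and bars for exact 95% Poisson intervals. Arntl is above Clock at 120 min only (16.0 and 11.7 rpkm), and the ratio of Bhlhe40 to Bhlhe41 is 32.8 at that time.

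Of 21 other clock genes on a list of paralogs, ROR receptors, D-box factors, enzymes that modify PER and CRY, corepressors and outputs, 16 had a mean normalised count of at least 10. At 60 min 2 of the 16 were higher (Rorb and Nfil3) and 1 lower (Bhlhe41), against the background shares given above. At 120 min 2 were higher (Rorb and Fbxw11) and 6 lower (Bhlhe41, Usp2, Per3, Tef, Gm129 and Btrc), against the shares given for that time. The study's own kind of test, with the fold limit, did not call Nfil3 at 60 min, nor Tef, Gm129 and Btrc at 120 min. The 5 scalings are given for the 10 members only. Bhlhe41 (Dec2), the paralog of Bhlhe40, was the most reduced. Its normalised count was 4793.3 before LPS, 6231.9 after 15 min and 517.9 after 120 min, which gave a ratio of 0.108 (0.0994 to 0.117) and a log2 ratio of -3.21, where that of Bhlhe40 was 0.60. In rpkm, Bhlhe40 exceeded Bhlhe41 2.34-fold (2.25 to 2.42) at 0 min and 32.8-fold (30.3 to 35.6) at 120 min.

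Nfil3, which encodes the repressor that competes with DBP at D-boxes, was 3.75-fold (3.53 to 3.97) above 0 min at 75 min and 1.37-fold (1.29 to 1.47) at 120 min. The ratio of Nfil3 to Dbp in rpkm was 1.85 (1.68 to 2.04) at 0 min, 11.9 (10.3 to 13.8) at 90 min and 5.57 (4.92 to 6.33) at 120 min. These ratios use the length that puts Dbp at 3.39 rpkm at 0 min. With the sense-strand length (2.47 rpkm) each ratio would be higher by the same factor. Tef, an activator related to Dbp, was at 0.644 (0.599 to 0.691) of its untreated value at 120 min. Hlf, the other activator of that family, had at most 1 read in any library.

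Among the outputs at 120 min, Usp2, a deubiquitinase, was at 0.284 (0.265 to 0.304) of 0 min, and Gm129 (Ciart), a repressor of CLOCK:BMAL1, at 0.650 (0.578 to 0.731) after 1.42 (1.28 to 1.58) at 45 min. The other outputs on the list, Wee1 and Nampt, were inside the fold limit at all times. At 120 min Wee1 was at 0.742 (0.711 to 0.774) and Nampt at 1.12 (1.09 to 1.14). Per3 was at 0.556 (0.472 to 0.654) at 120 min, when Per1 was at 1.37. The ubiquitin ligase subunits Fbxw11 and Btrc, which target PER, were at 1.65 (1.61 to 1.68) and 0.670 (0.619 to 0.726). The kinases Csnk1d, Csnk1e and Gsk3b and the REV-ERB corepressors Ncor1 and Hdac3 were inside the fold limit at all times, with log2 ratios from -0.24 to 0.45.

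Of the ROR receptors, which oppose REV-ERB, Rora had at most 1 read in any library. Rorb had 15 reads at 0 min and 53 to 150 in the LPS libraries, a ratio of 7.86 (4.56 to 14.5) at 15 min, but it reached no more than 0.119 rpkm. Npas2 and Arntl2, the paralogs of Clock and Arntl, had 2 to 13 and 0 to 6 reads.

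**Figure D5:**
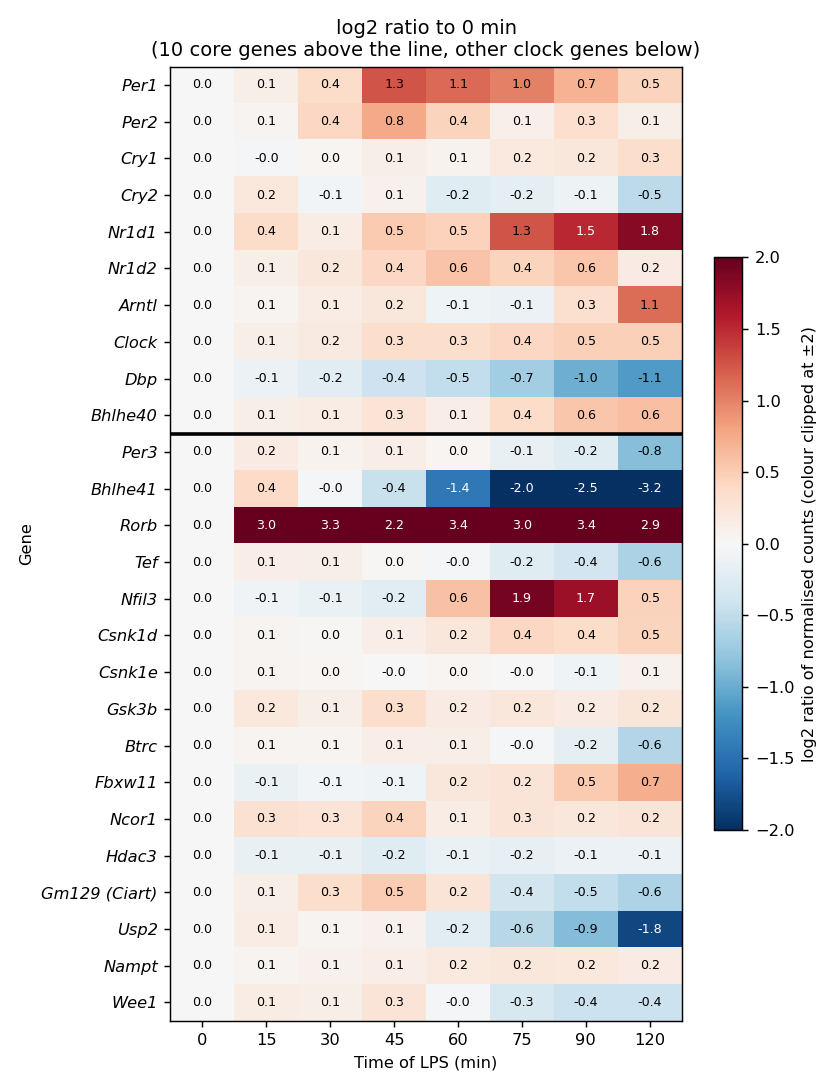
The log2 ratio of normalised counts to 0 min for the 10 clock genes (above the line) and the 16 other clock genes with a mean count of at least 10 (below), by minutes of LPS, with the colour scale clipped at 2 in each direction. Per1 is highest at 45 min (1.26), Nr1d1 (1.82) and Arntl (1.11) at 120 min, and Dbp (-1.13), Usp2 (-1.82) and Bhlhe41 (-3.21) are lowest at 120 min.

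Finally, the genes whose time courses were most like those of the 4 members with a log2 ratio of at least 1 in either direction were listed, by Pearson's r of log2 normalised counts over the 8 libraries among 10494 genes. The points share library, depth and Rn45s share, and the values are a description. For Arntl they were Phf15 (r = 0.977), Stk10 (0.972) and Bcl11b (0.971), and 78 genes had an r above 0.9. For Per1 they were Lrp8 (0.980), Dbf4 (0.975) and Ercc6l (0.970), whose own largest log2 ratios were only 0.25 to 0.38, with 75 genes above 0.9. For Nr1d1 (Furin 0.995, Klf7 0.995, Micall1 0.994) and Dbp (Scd2 0.997, Amigo1 0.997, D830046C22Rik 0.996) 994 and 1394 genes were above 0.9. More genes thus passed this value for Nr1d1 and Dbp than for Per1 and Arntl, but r takes no account of the size of a change. By Spearman's rho, which uses ranks, the 3 values for Arntl were 0.952, 0.881 and 0.905.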

How the data were processed

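Raw read counts per gene symbol for 8 libraries (1 untreated, 7 with 100 ng/ml LPS) were deposited by the authors in 1 table of 23143 genes. According to the study's methods, reads of 58 bases were mapped with Bowtie (version not given in the sources used here) to mm10 RefSeq transcripts with at most 2 mismatches, and reads with hits in several gene symbols had been left out. The submitters' processing notes name CASAVA 1.8.2 and DESeq 1.10.1.

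Counts were divided by median-of-ratios size factors (0.710 to 1.23) with Python 3.11.15 (numpy 2.4.6, scipy 1.17.1), and each library was compared with 0 min. Called genes had a log2 ratio beyond 0.5 and a mean normalised count of at least 10. Ratios carry exact conditional binomial 95% intervals and levels exact Poisson ones. Total counts were 100250892 to 159077286. With 1 library per time there are no residual degrees of freedom, so edgeR (4.0.16) gave only TMM factors, and an exact negative binomial test with a dispersion of 0.0287 plus 0.853 over the mean, at an unadjusted limit of 0.05, was an alternative. The scripts were tested on simulated data. Annotation came from RefSeq and the GRCm38.p6 reference.

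All 10 members were named, and other clock genes when beyond 0.5 at 60 or 120 min. Further genes of the list of other clock genes, inside the limit or below the count filter, were named as well. Some genes of that list are not reported here. Members and lists were chosen with earlier results of these data known. The neighbours Sphk2, 0610040F04Rik and D930015M05Rik came from the annotation. The length trend and the sense-strand lengths were alternatives added after the data were examined.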

Additional observations from a re-analysis of the deposited data

How the results depend on the processing

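The number of the 10 clock genes beyond the fold limit was 3, 2, 3, 5 and 5 at 45, 60, 75, 90 and 120 min. At 90 min it was 2 with libraries scaled by total counts and 3 by total counts without Rn45s. The share of all genes called under these scalings is not given, so whether the members exceed it cannot be judged. With a log2 limit of 1 it was 1 at 45, 60, 75 and 90 min and 3 at 120 min, where 4.77%, 5.71%, 7.55%, 9.26% and 12.4% of all genes were beyond it. With the exact negative binomial test it was 1, 1, 2 and 3 at 45, 60, 90 and 120 min. Of these and the other counts of members, 97 values under an alternative stayed within 1.5 times the main count and 11 did not, and no direction of a called gene reversed. Leaving out each LPS library in turn, TMM factors, a pseudocount of 1, a filter at a mean of 100 and no filter moved no count by more than that. Most of these settings could hardly do so. The lowest mean normalised count of a member was 140.8 (Per2), so neither filter could remove one. A library left out entered the comparison of other libraries only through the scale. Most of the 97 values come from such settings, so that tally does not measure how firm the counts are. Low depth limits Per2, Nr1d1 and Dbp, with 87, 188 and 198 reads in their smallest libraries. No paired analysis was possible because each time point has 1 library.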
